A study of Mus musculus with 6 samples.

Results

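The genes described are 9 of the 24421 symbols in a mouse count table, namely the neurofilament and related neuronal genes Nefl, Nefm, Nefh and Ina and the intermediate filament genes of muscle and of muscle precursors, Des, Vim, Nes, Synm and Sync. The group was chosen by family after earlier work on the same libraries had placed Nefl and Nefm among the strongest falls, so the fold changes of all 9 genes are given as descriptions and no test is made of them as a group. RNA sequencing compared C2C12 cultures carrying a lentiviral hairpin against Gaa (shGAA, n = 3 libraries) with C2C12 cultures carrying a scrambled hairpin (shScrambled, n = 3 libraries). C2C12 is an immortal mouse myoblast line that can fuse into multinucleated myotubes. Both groups were grown in 10% fetal bovine serum, infected, selected with puromycin, and then moved to 2% horse serum, with glucose at 4.5 g/l throughout, and were harvested as myotubes. The labels name 1 cell line, give neither the number of hairpin sequences nor the origin of each library (own dish or own infection), and carry an unexplained "Fed" in the titles of both groups, so the p-values measure only how far these libraries differ from each other, and that spread may be technical.

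Intermediate filaments are rope-like polymers of coiled-coil proteins that give a cell its tensile strength. In muscle, desmin (Des) rings the Z-discs and ties myofibrils to each other and to the membrane, vimentin (Vim) and nestin (Nes) are the filament proteins of myoblasts and immature fibres, and synemin (Synm) and syncoilin (Sync) join or bind desmin filaments. Neurofilaments fill the axons of large neurons, where the light (Nefl), medium (Nefm) and heavy (Nefh) chains assemble together with alpha-internexin (Ina).

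The libraries held 9224038 to 10430270 counts, and 11801 genes passed a filter on low counts and were tested. Of these, 2182 were called higher in shGAA (18.5%) and 2330 lower (19.7%), a call being an adjusted p under 0.05 in edgeR's quasi-likelihood test, adjusted by Benjamini-Hochberg over the 11801 genes. Without TMM, a scaling for RNA composition, the counts were 2809 higher and 1872 lower. Values are given in CPM, read counts scaled to the library's total over the 11801 tested genes, adjusted by TMM. The libraries of a group are in the order 1, 2, 3. Fold changes are given as log2 of shGAA over shScrambled with their standard error (SE). Gaa, which encodes the lysosomal enzyme that digests glycogen, had 47.9, 47.5 and 51.9 CPM in shGAA and 106, 124 and 119 CPM in shScrambled, so the targeted RNA was lower in every shGAA library. Among the shScrambled libraries, number 1 was set apart. Divided by its degrees of freedom, the chi-square of its counts against the other libraries of the group was 5.87 and 5.31, against 1.95 to 2.54 for each other pair within a group. Some results are therefore also given without it, or as a range with each library left out in turn. In bulk RNA, fewer cells of a type and less RNA per cell cannot be told apart.

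Of the 9 genes, 6 passed the filter on low counts. Among these, 5 were called lower in shGAA, beside 19.7% of all tested genes, 0 were called higher, beside 18.5%, and Nes did not pass. The 3 shGAA libraries lay wholly apart from the 3 shScrambled libraries in 4 of the 6, beside 49.6% of all tested genes. Nothing is read from these shares, because the same contrast put the group forward. The sizes differed, with Nefl at 23.6% and Nefm at 27.4% of their shScrambled level and Des, Vim and Sync at 81.3% to 81.5%. Nes, which was not called, was at 92.7%.

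**Figure D1:**
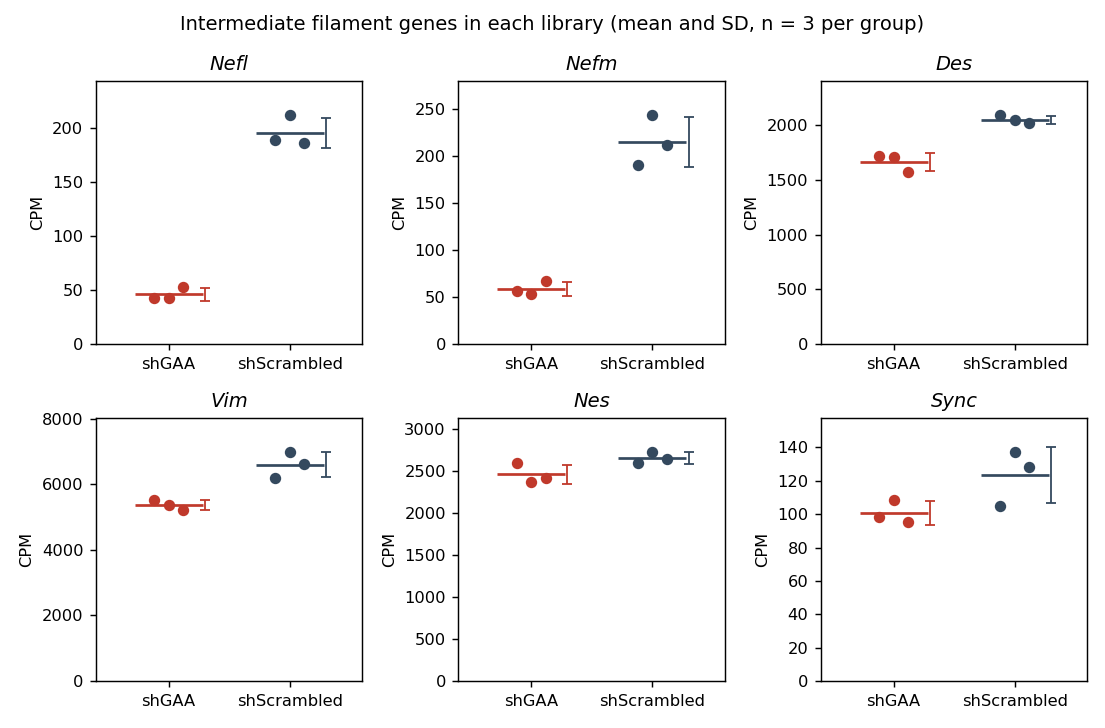
CPM of the 6 intermediate filament genes that passed the filter, 1 dot per library, with the group mean as a line and the SD as a bar (n = 3 per group, shGAA left, shScrambled right, all axes from 0). Nefl and Nefm lie far apart between the groups, Des and Vim lie apart by less, and the groups overlap for Nes and Sync.

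Nefl encodes the neurofilament light chain, the core subunit on which the other chains assemble. The shGAA libraries held 419, 399 and 567 of its reads and the shScrambled libraries 1840, 1969 and 1742. These are 42.8, 42.6 and 53.3 CPM in shGAA and 189, 211 and 186 CPM in shScrambled. The highest shGAA library was shGAA 3, and it stayed far below the lowest shScrambled library. The mean was 46.2 ± 6.12 CPM in shGAA and 195 ± 13.9 CPM in shScrambled (SD, n = 3 each), so 23.6% of the control level was present. The log2 fold change was -2.08 ± 0.08 (SE), which placed Nefl at position 12 of 11801 when all tested genes were ordered from the largest fall. Without shScrambled 1 it was -2.10.

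Nefm encodes the neurofilament medium chain, which carries a long tail that projects from the filament. Its counts were 550, 498 and 718 in shGAA and 1850, 2265 and 1979 in shScrambled, or 56.2, 53.1 and 67.5 CPM against 190, 243 and 211 CPM. As with Nefl, shGAA 3 was the highest of its group and shScrambled 2 the highest of the other, and the groups did not overlap. Means were 58.9 ± 7.56 CPM in shGAA and 215 ± 26.8 CPM in shScrambled, and 27.4% of the control level was present. The log2 fold change was -1.86 ± 0.11 (SE), position 26 from the largest fall, and -1.94 without shScrambled 1.

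In these libraries the fall was somewhat larger for Nefl than for Nefm, a difference that was not tested. The ratio of Nefl to Nefm counts was 0.762, 0.801 and 0.790 in the shGAA libraries and 0.995, 0.869 and 0.880 in the shScrambled libraries. The ratio was lower in every shGAA library than in any shScrambled library, with shScrambled 1 the highest of all. Per length of annotated exon it averaged 1.34 ± 0.03 in shGAA and 1.56 ± 0.12 in shScrambled (SD, n = 3 each). Which chain was the more abundant per length depended on the length used. Divided by the longest annotated transcript, the ratio was 0.854 in shGAA and 0.996 in shScrambled, so that Nefl was level with Nefm in shScrambled and below it in shGAA. Divided by exonic bases free of the other gene, it was 1.61 in shGAA and 1.88 in shScrambled. That scale used the full counts, so it fits only if reads in the shared bases were left out of them, which is not known.

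The reads of Nefl and Nefm may not be fully separate, because one annotated transcript of Nefm runs through Nefl. On GRCm38 (mm10), Nefl (Entrez 18039) lies on the plus strand at chr14:68083863-68089095, with 1 transcript of 4 exons in GENCODE M21. Nefm (Entrez 18040) lies on the minus strand at chr14:68082590-68124846, with 2 transcripts. Nefm-201 ends 30187 bases away from the end of Nefl and shares nothing with it. Nefm-202 skips the last exon of Nefm-201 and splices instead to an exon of 67 bases and to a last exon of 2381 bases that covers most of the first exon of Nefl on the opposite strand. The shared stretch, chr14:68083863-68084970, holds 1108 bases, which is 32.8% of the exonic bases of Nefl and 19.2% of those of Nefm. Of these bases 1008 are coding in Nefl and 144 are coding in Nefm-202, and the rest are untranslated in the transcript concerned. RefSeq places Nefm at chr14:68119545-68125004, which leaves no overlap. Neither the annotation nor the strand setting of the deposited counts is given in the sources used here, so the number of reads in the shared stretch was not analysed here. Read in the direction of the transcripts, 0% of the 50-base stretches of Nefl and 0.0174% of those of Nefm occur in transcripts of other genes. Matches on the opposite strand, such as this overlap, were not searched.

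The edge of the overlap is shown because it is where the sequences of both transcripts part, while a read that lies wholly inside the overlap could, without strand, belong to either gene. The capitals mark the 15 bases that lie in both genes, on opposite strands, and the 15 bases in lower case are outside the overlap. In Nefl-201 the run is unbroken within the first exon (chr14:68084956-68084985, plus strand). In Nefm-202 it crosses the junction of the third exon (chr14:68115950-68115964) and the last exon (chr14:68084956-68084970, minus strand), so its capitals are the reverse complement of the capitals of Nefl-201. Both are transcript sequences of GENCODE M21, written 5′ to 3′.
Nefl-201: AAGCAGCTGCAGGAGctagaggacaagcag
Nefm-202: gagatctcaaagccaCTCCTGCAGCTGCTT

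**Figure D2:**
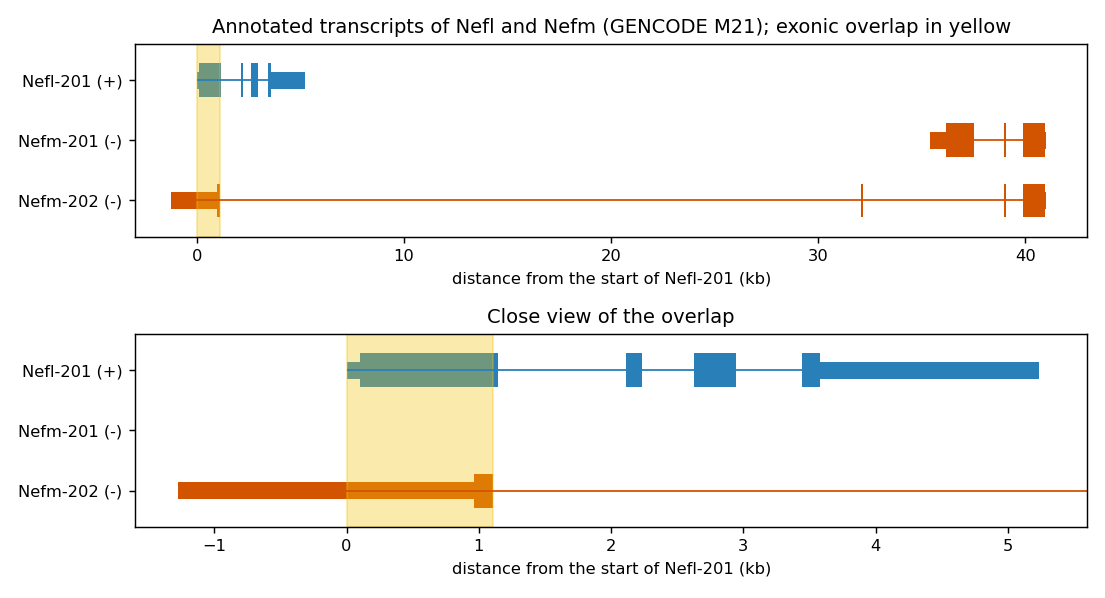
Annotated transcripts of Nefl (plus strand, blue) and Nefm (minus strand, orange), drawn to scale in kb from the start of Nefl-201, with coding exon parts tall, untranslated parts low and introns as lines. The yellow band is the 1108 bases of shared exon, which Nefm-202 reaches and Nefm-201 does not.

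The other neuronal filament genes were almost silent. Nefh, the heavy chain (Entrez 380684, chr11:4938754-4948064, minus strand), was counted 0, 0 and 1 times in the shGAA libraries and 0, 1 and 0 times in the shScrambled libraries. Ina, alpha-internexin (Entrez 226180, chr19:47014698-47025327, plus strand), was counted 0, 1 and 1 times in the shGAA libraries and 0, 1 and 0 times in the shScrambled libraries. Both genes had at most 1 count in every library, and no fold change is given. A count of 0 allows up to 3 counts, a limit of 0.282 to 0.322 CPM, and a count of 1 allows more. Such limits, and the intervals below, cover counting error only. The related genes Prph, which encodes peripherin of peripheral neurons, and Gfap, the filament gene of astrocytes, had 5 and 2 counts over the shGAA libraries and 5 and 1 over the shScrambled libraries. Transcripts of the light and medium chains were thus present in C2C12 cells with hardly any of the heavy chain, alpha-internexin or peripherin.

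Des, Vim and Nes made up nearly all of the RNA of the 9 genes. Per kb of exon, Vim held 56.1 ± 0.187% of their summed level in shGAA and 55.9 ± 1.13% in shScrambled (SD, n = 3 each). Des held 21.95 ± 0.583% in shGAA and 21.94 ± 1.17% in shScrambled, and Nes held 19.0 ± 0.578% in shGAA and 16.6 ± 0.258% in shScrambled. The share of Nefl was 0.679 ± 0.110% in shGAA and 2.32 ± 0.0993% in shScrambled, and that of Nefm was 0.506 ± 0.0782% in shGAA and 1.49 ± 0.125% in shScrambled. Sync held 1.74 ± 0.122% in shGAA and 1.73 ± 0.172% in shScrambled. Per kb the order in shScrambled was Vim, Des, Nes, Nefl, Sync, Nefm and, far below, Synm. In shGAA the order was Vim, Des, Nes, Sync, Nefl, Nefm and Synm. Nefl thus dropped below Sync, while Nefm was below Sync in both groups. With the longest transcript as the length, Nefm at 58.4 CPM per kb stood beside Nefl at 57.8 and above Sync at 53.0 in shScrambled, and Nefm at 16.0 stood above Nefl at 13.7 in shGAA.

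Des encodes desmin (Entrez 13346, chr1:75360329-75368579, plus strand). The shGAA libraries held 16804, 15993 and 16702 of its reads and the shScrambled libraries 20309, 19022 and 18854. On the CPM scale these were 1717, 1706 and 1570 in shGAA and 2087, 2043 and 2013 in shScrambled, and the groups did not overlap. Des fell to 1664 ± 82.0 CPM in shGAA, against 2047 ± 37.2 CPM in shScrambled (SD, n = 3 each), a log2 fold change of -0.30 ± 0.04 (SE), or -0.29 without shScrambled 1.

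Vim encodes vimentin (Entrez 22352, chr2:13573927-13582826, plus strand). Reads assigned to it numbered 54026, 50366 and 55569 in shGAA and 60256, 64988 and 62084 in shScrambled. In CPM these were 5519, 5374 and 5223 in shGAA and 6191, 6979 and 6627 in shScrambled, with shScrambled 1 the lowest of its group but above every shGAA library. Vim fell to 5372 ± 148 CPM in shGAA, against 6599 ± 395 CPM in shScrambled, a log2 fold change of -0.30 ± 0.04 (SE), and of -0.34 without shScrambled 1. Des and Vim moved by a like amount, and their count ratio was 0.310 ± 0.00856 in shGAA and 0.311 ± 0.0231 in shScrambled (SD, n = 3 each).

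The promoters of Des and Vim are shown because these abundant genes fell together. Each run holds 250 bases before to 50 after the gene start, from RefSeq on GRCm38.p6, written 5′ to 3′ on the plus strand. Entries were found for 6 of the 9 genes, namely Ina, Des, Vim, Nes, Synm and Sync. The capitals mark matches to CANNTG, the E-box bound by MyoD-family factors, and to TATAAA, the TATA box, searched on both strands. Des holds CANNTG at -220 to -215 and at -36 to -31 from the start and no TATAAA, and Vim holds TATAAA at -32 to -27 and no CANNTG. Of the 32851 promoters in the table, 72.3% hold CANNTG and 13.6% hold TATAAA. The GC box, GGGCGG, which is not in capitals, is found 2 times in Des and 0 times in Vim, and 35.7% of promoters hold it. Neither promoter holds a CArG box (in 1.63% of promoters) or a MEF2 site (in 3.19%). The E-box in Des closest to the start reads CAGCTG and the distal one CAAATG, and no overlap between the marked motifs occurs. Des lies at chr1:75360042-75360341 and Vim at chr2:13574061-13574360 in these runs.
Des: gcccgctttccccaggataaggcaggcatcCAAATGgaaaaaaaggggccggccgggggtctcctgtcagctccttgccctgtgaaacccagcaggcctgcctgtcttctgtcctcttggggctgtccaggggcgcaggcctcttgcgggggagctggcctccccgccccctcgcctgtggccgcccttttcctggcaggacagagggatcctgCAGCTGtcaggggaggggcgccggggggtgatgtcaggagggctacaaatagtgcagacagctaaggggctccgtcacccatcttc
Vim: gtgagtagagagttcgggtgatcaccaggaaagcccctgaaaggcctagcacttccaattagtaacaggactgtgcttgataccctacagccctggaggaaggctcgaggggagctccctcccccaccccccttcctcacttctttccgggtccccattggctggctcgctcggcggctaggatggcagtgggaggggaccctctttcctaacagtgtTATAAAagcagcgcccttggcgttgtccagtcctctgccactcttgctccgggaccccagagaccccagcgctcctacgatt

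Nes encodes nestin (Entrez 18008, chr3:87971078-87980451, plus strand). The shGAA libraries held 25395, 22271 and 25759 of its reads and the shScrambled libraries 25251, 25406 and 24831. In CPM it stood at 2594, 2376 and 2421 in shGAA and at 2594, 2728 and 2650 in shScrambled. The library shGAA 1 was level with shScrambled 1, so the groups overlapped. The log2 fold change was -0.11 ± 0.04 (SE) and did not pass (edgeR adjusted p = 0.0528). Leaving out shGAA 1 (adjusted p = 0.0168) or shScrambled 1 (adjusted p = 0.0219) made it pass, as did testing with no filter on low counts (adjusted p = 0.0357) and limma-voom (adjusted p = 0.0450), within a range of 0.0168 to 0.236 over 12 alternatives.

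Sync encodes syncoilin (Entrez 68828, chr4:129287617-129308559, plus strand), which binds desmin and the dystrobrevin complex at the muscle membrane. Library by library it was counted 962, 1018 and 1014 times in shGAA and 1021, 1278 and 1204 times in shScrambled. The CPM values were 98.3, 109 and 95.3 in shGAA and 105, 137 and 129 in shScrambled. The library shScrambled 1 lay inside the range of the shGAA libraries. Sync fell by 0.29 ± 0.09 on the log2 scale (SE, edgeR adjusted p = 0.0280), and by 0.40 without shScrambled 1. The call ended without TMM scaling (adjusted p = 0.0555), and also when the library left out was shGAA 1 (0.0922), shGAA 3 (0.116), shScrambled 2 (0.0626) or shScrambled 3 (0.0869), within a range of 2.17e-07 to 0.116 over 12 alternatives. In GENCODE M21, 27.3% of the exonic bases of Sync overlap Rbbp4 on the opposite strand. Rbbp4, a histone-binding protein gene, had 278 ± 6.37 CPM in shGAA and 292 ± 8.58 CPM in shScrambled and did not pass (edgeR adjusted p = 0.238).

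Synm encodes synemin (Entrez 233335, chr7:67730160-67759742, minus strand), a large filament protein that needs desmin or vimentin to assemble. The shGAA libraries held 7, 10 and 9 of its reads and the shScrambled libraries 8, 9 and 11, so it did not pass the filter and the groups overlapped. The ratio of shGAA to shScrambled, scaled for library size, was 0.885 with a 95% counting interval of 0.499 to 1.57. At this depth a change within that interval was not detectable.

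**Figure D3:**
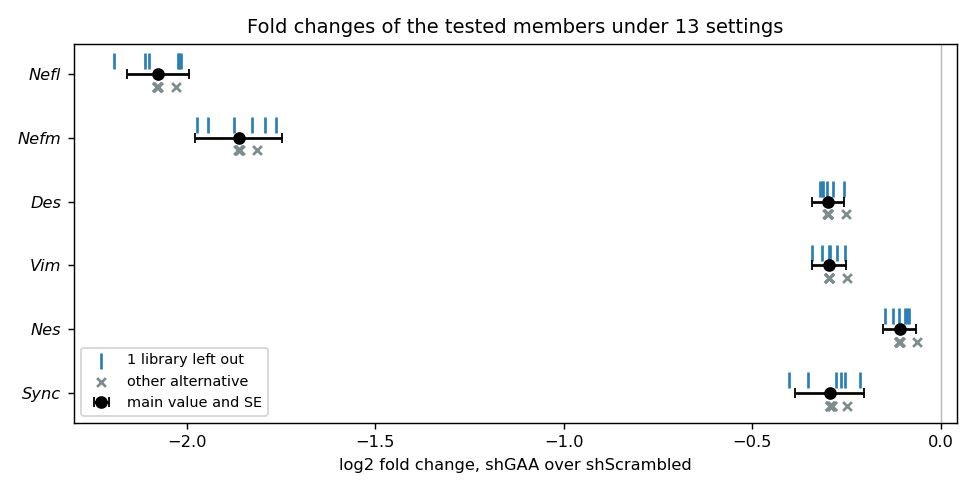
Log2 fold change of shGAA over shScrambled for the 6 tested intermediate filament genes, with the main value and its SE in black, values with 1 library left out as blue ticks and other alternatives as grey crosses. All values lie below 0, those of Nefl between -2.19 and -2.02 and those of Nefm between -1.97 and -1.76, and Nes lies closest to 0.

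**Figure D4:**
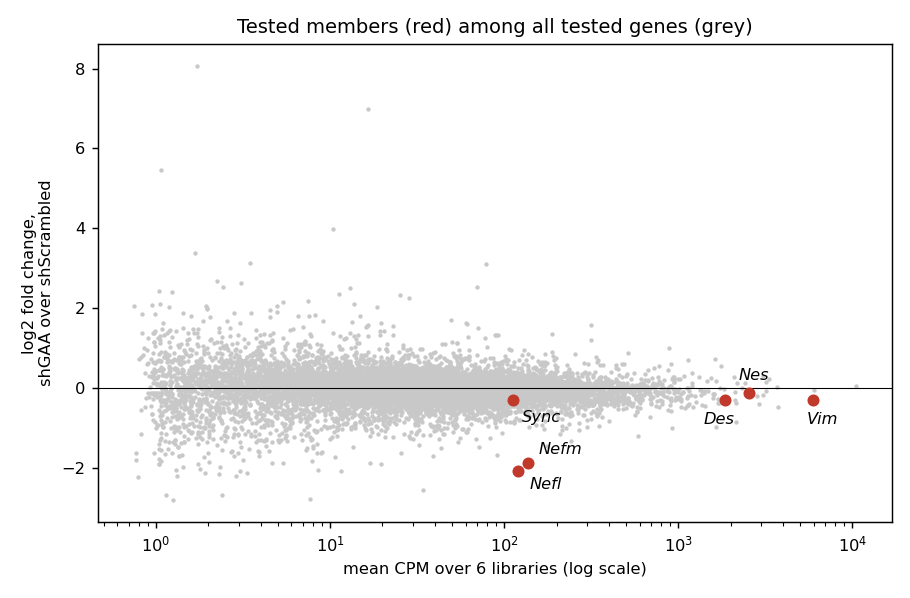
Log2 fold change of shGAA over shScrambled against mean CPM over 6 libraries (log axis) for all 11801 tested genes in grey, with the 6 tested intermediate filament genes in red. Nefl and Nefm sit at the lower edge of the cloud at their level, and Des, Vim, Nes and Sync sit within 0.30 of 0.

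Genes listed as filament genes outside the group moved both ways. Of 22 listed, 11 were tested, 2 of them higher in shGAA, 4 lower and 5 not passing, with a median log2 fold change of 0.02. Over all tested genes, to be read beside this and each list below, 18.5% were called higher and 19.7% lower, with a median of 0.01. Lmna, the nuclear lamin A/C gene, fell to 1000 ± 40.1 CPM in shGAA, against 1312 ± 31.7 CPM in shScrambled (-0.39 ± 0.04, edgeR adjusted p = 2.33e-06). Krt19, a simple-epithelium keratin that is also made in striated muscle, fell by 1.32 ± 0.30 on the log2 scale from a low level, with 2.86, 2.24 and 2.07 CPM in shGAA and 3.29, 7.52 and 7.15 CPM in shScrambled. Its lowest shScrambled value was that of shScrambled 1, and without that library it fell by 1.62. Iffo2 fell by 0.43 ± 0.06. Eif6, counted among the 4 lower genes of the list, fell by 0.34 ± 0.06, but it encodes a ribosome assembly factor and not a filament protein. The keratin gene Krt80 was at 0.17 ± 0.06 (edgeR adjusted p = 0.0453), and its call was lost without shGAA 1 (adjusted p = 0.101), shGAA 2 (0.185) or shScrambled 3 (0.209, the highest of 12 alternatives), and in DESeq2, limma-voom and a non-robust fit. The count of higher genes was 1 without shGAA 2 or shScrambled 3, in DESeq2 and in a non-robust fit, 0 without shGAA 1 and 3 without TMM scaling.

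Genes for filament linkers and chaperones were tested in 25 of 28 cases, of which 4 rose, 9 fell and 12 did not pass, with a median log2 fold change of -0.08. Plec, whose product plectin anchors desmin to Z-discs, nuclei and mitochondria, fell to 1912, 1897 and 1812 CPM in shGAA, against 2596, 2342 and 2312 CPM in shScrambled (-0.37 ± 0.05, edgeR adjusted p = 1.19e-05). Dst, another plakin linker, rose by 0.32 ± 0.05 on the log2 scale. Sntb1, a syntrophin of the dystrophin complex, rose by 0.54 ± 0.07, and Syne2, a nuclear envelope linker, fell by 0.35 ± 0.06. The stretch-responsive gene Ankrd1 fell by 0.24 ± 0.08 (edgeR adjusted p = 0.0407). Its call was lost without shGAA 1 (adjusted p = 0.0507), shGAA 2 (0.119), shGAA 3 (0.145), shScrambled 2 (0.0641) or shScrambled 3 (0.104) and without TMM scaling (0.0929), the highest of 12 alternatives being 0.145. Cryab, the desmin chaperone alphaB-crystallin, was chosen after its values were seen. It had 316, 300 and 280 CPM in shGAA and 328, 477 and 473 CPM in shScrambled, and did not pass (-0.51 ± 0.17, edgeR adjusted p = 0.0801). Without shScrambled 1 it fell by 0.67 (adjusted p = 3.61e-16), and it also passed in DESeq2, limma-voom and a non-robust fit, the highest adjusted p of 12 alternatives being 0.209.

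Enzymes that modify or degrade filaments had 2 rises, 6 falls and 14 without a call among 22 tested of 23, with a median of -0.08. The falls included the mitotic kinases Cdk1 (-0.58 ± 0.06, edgeR adjusted p = 6.07e-07) and Plk1 (-0.53 ± 0.06), which phosphorylate vimentin or nestin in dividing cells, and the kinase gene Pak1 (-0.50 ± 0.05). Capn2, a calpain protease, fell by 0.22 ± 0.05, and Rock2 was at -0.04 ± 0.04 (edgeR adjusted p = 0.539), or 0.01 without TMM scaling. The count of rises was 1 with shGAA 1, shGAA 2, shScrambled 1 or shScrambled 3 left out and in DESeq2, limma-voom and a non-robust fit, and 3 without TMM scaling.

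Neuronal genes moved both ways. Of 24 neuron markers 10 were tested, and 3 rose, 2 fell and 5 did not pass, with a median of 0.03. Tubb3, a neuronal tubulin gene, fell to 199, 182 and 194 CPM in shGAA, against 376, 338 and 334 CPM in shScrambled (-0.87 ± 0.05, edgeR adjusted p = 4.87e-09), and Gap43, a growth cone gene, fell by 0.81 ± 0.12. Stmn2, a tubulin-binding gene of growing axons, rose by 0.83 ± 0.15 and Map2, a dendritic microtubule gene, by 0.27 ± 0.07. The abundant genes Map1b (0.00 ± 0.05, edgeR adjusted p = 0.976) and Dpysl3 (-0.07 ± 0.04, edgeR adjusted p = 0.252) did not pass. Of the 24 markers, 5 had no count in any library, among them the synaptic gene Snap25 and the neuronal genes Dcx and Elavl4. The summed level of the list was 1091 to 1119 CPM in shGAA and 1219 to 1301 CPM in shScrambled, and most of that gap lay in Tubb3, which averaged 192 CPM in shGAA and 349 CPM in shScrambled. Of 10 glial and Schwann cell markers 3 were tested, with 1 rise (Aldh1l1, 1.11 ± 0.32, edgeR adjusted p = 0.0107, or 0.0931 without shGAA 1, the highest of its alternatives) and 2 without a call (among them Cnp, -0.08 ± 0.09), and with 3 listed markers, Sox10 among them, at 0. Their sum was 36.5 to 43.5 CPM in shGAA and 36.3 to 42.4 CPM in shScrambled. Aldh1l1 was low, with 54, 25 and 32 counts in shGAA and 21, 12 and 16 in shScrambled.

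The REST complex, which keeps neuronal genes off in other cells, was tested through 13 genes, of which 3 rose, 0 fell and 10 did not pass, with a median of 0.09. The histone demethylase gene Kdm1a rose by 0.44 ± 0.05 (edgeR adjusted p = 3.93e-06) and the methyltransferase gene Ehmt2 by 0.27 ± 0.06. Without shScrambled 1, 1 gene of the list fell. Hdac2 was at 0.04 ± 0.05. Rest itself, chosen after its values were seen, had 35.6 ± 0.934 CPM in shGAA and 33.1 ± 1.96 CPM in shScrambled and did not pass (0.11 ± 0.08, edgeR adjusted p = 0.295).

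Most of the tested muscle differentiation markers were called lower. Of 20 listed, 18 were in the table and 16 were tested, and 11 fell, 0 rose and 5 did not pass, with a median of -0.71, beside 19.7% lower, 18.5% higher and a median of 0.01 over all tested genes. Their summed level was 833 to 898 CPM in shGAA and 1238 to 1503 CPM in shScrambled, with shScrambled 1 the highest. The falls included Actn3, the fast-fibre actinin gene (-1.14 ± 0.05, edgeR adjusted p = 1.17e-10), Acta1, skeletal actin (-0.71 ± 0.08), Dysf, a membrane repair gene (-0.68 ± 0.09), and Ckm, muscle creatine kinase (-0.94 ± 0.16). Mean levels of the tested markers in shScrambled ran from 1.54 CPM for Myh8 to 453 CPM for Acta1, with Ckm at 12.1 CPM. The cell division gene Mki67 averaged 237 CPM in the same group. How far the cultures had differentiated was not tested. Without shGAA 3 the falls were 7, and without shGAA 1 or shScrambled 1 there was 1 rise, as there was without TMM scaling and with no filter. With 1 library left out, log2 fold changes ran from -1.04 to -0.75 for Ckm and from -0.78 to -0.61 for Acta1. Those of Myog ran from -0.53 to -0.31. Of the myogenic regulators, chosen after their values were seen, Myog had 37.3 ± 1.19 CPM in shGAA and 50.2 ± 7.59 CPM in shScrambled and fell by 0.43 ± 0.09, and Myod1 was at 0.04 ± 0.07 (edgeR adjusted p = 0.684), with -0.02 at the lowest of 12 alternatives. Their part in the lower level of the filament genes was not tested.

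**Figure D5:**
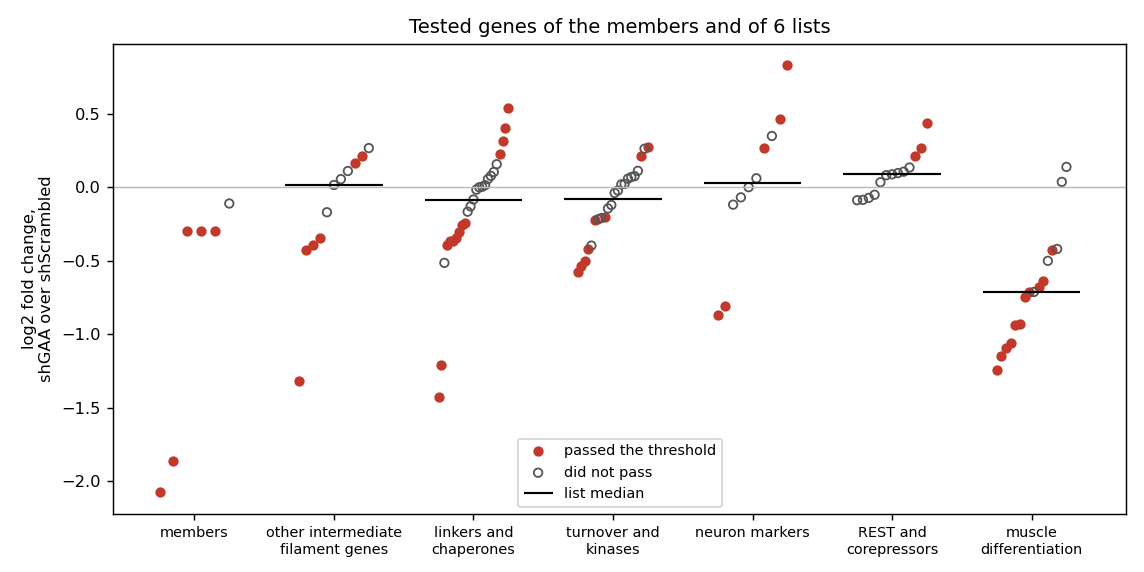
Log2 fold change of shGAA over shScrambled for the tested intermediate filament genes and for the tested genes of 6 lists, 1 point per gene, filled where the gene passed the threshold and open where it did not, with the list median as a line. Nefl and Nefm lie below every point of the lists, whose medians run between -0.71 for muscle differentiation and 0.09 for REST and its corepressors.

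Of the 5 protein-coding genes annotated on each side of Nefl and Nefm, 4 were tested and all 4 were called lower, beside 19.7% of all tested genes, and the call of 1 of them, Stc1, was lost in 5 of 12 alternatives. On the side of the start coordinate, Dock5, a gene for a Rac activator lying 149.15 kb away, had 819, 707 and 880 counts in shGAA and 1060, 1073 and 1135 in shScrambled (-0.51 ± 0.06, edgeR adjusted p = 4.62e-06). Kctd9 fell by 0.47 ± 0.06 and the cell cycle gene Cdca2 by 0.37 ± 0.09. On the other side, Stc1, which encodes the secreted hormone stanniocalcin and lies 904.39 kb away, had 712, 962 and 1185 counts in shGAA and 3335, 1910 and 2118 in shScrambled (-1.43 ± 0.29, edgeR adjusted p = 0.0229). The Stc1 call was lost without shGAA 1 (adjusted p = 0.0644), shGAA 2 (0.0771), shGAA 3 (0.0605) or shScrambled 3 (0.0545) and with the replicate number as a block (0.118), with 1.55e-05 to 0.118 as the range over 12 alternatives. With 1 library left out, the log2 fold change of Stc1 ran from -1.57 to -1.17. The other 6 neighbours, Ebf2, Gnrh1, Adam7, Adamdec1, Adam28 and Nkx2-6, had at most 4 counts in any library.

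The genes most like the neurofilament chains over the 6 libraries were sought by Pearson's r of log2(CPM + 1), among 10028 genes with at least 5 CPM on average, as a description. The libraries fall into 2 groups, so no p is given. For Nefl these were Kif20a (r = 0.999), Ipo9, Prc1, Rbpms2 and Stambpl1 (r = 0.998 each), with log2 fold changes between -1.20 and -0.39. For Nefm these were Gaa and Rbpms2 (r = 0.998 each) and Rps26, Dpy19l3 and Kpna3 (r = 0.997 each), with changes between -1.25 and -0.24. Between Nefl and Nefm themselves r was 0.997.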

How the data were processed

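RNA was measured in 6 libraries of C2C12 cells, 3 with a Gaa hairpin and 3 with a scrambled one, made from 1 ug of total RNA per the labels. The values deposited by the authors are raw counts, 1 row for each symbol. The submitters' processing notes name mm10, HISAT2 2.1.0, Subread, FastQC and edgeR. For the gene annotation, strand setting and multi-mapped reads, nothing is given in the sources used here. Of the symbols, 95.0% occur in RefSeq and 95.8% in GENCODE M21, both on GRCm38.

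From the counts, genes were kept by filterByExpr (count minimum 10, total minimum 15), scaled by TMM (factors 0.979 to 1.02) and tested with edgeR 4.0.16 in R 4.3.3 (robust quasi-likelihood fit on the group alone, all 6 libraries, Benjamini-Hochberg adjustment over 11801 genes). The SE is the fold change divided by the square root of F. Alternatives used DESeq2 1.42.0, limma-voom (limma 3.58.1), no TMM, no filter, a non-robust fit, a replicate block and each library left out. Levels per kb used exon lengths of GENCODE M21. The code was tested on simulated data.

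The 9 genes and the 10 gene lists (178 genes) were chosen with earlier results of these data known. Named genes were the 9 genes, Gaa, Prph, Gfap, the 5 protein-coding neighbours on each side, the 5 genes most like Nefl or Nefm, and per list up to 4 called genes with the smallest adjusted p and the 2 most abundant. A search of protein sequences was not made here. For 1 gene that this rule names, the result is not reported here.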

Additional observations from a re-analysis of the deposited data

How the results depend on the processing

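Nefl, Nefm, Des and Vim kept their direction and their call under all 12 alternatives, and the count of these 9 genes called lower ran from 4 to 6, against 5. Nes, not called at -0.11, passed with no filter on low counts (-0.11), in limma-voom (-0.11) and without shGAA 1 or shScrambled 1, with -0.147 to -0.0829 when 1 library was left out. Sync, called at -0.29, lost its call without TMM scaling (-0.25) and without any 1 of 4 libraries, with -0.40 to -0.21 when 1 was left out. The replicate block gave 2037 higher and 2197 lower genes, against 2182 and 2330, and among the named genes it ended the call of Stc1. No pairing by replicate number was visible, since same-numbered libraries deviated with correlations of -0.04, 0.06 and -0.01 and other pairs with -0.08 to 0.07. Whether same-numbered libraries shared an origin cannot be told from these values. Values near 0 changed sign for Rock2 (0.0102 without TMM scaling), Map1b (-0.0296 to 0.0274 with 1 library left out) and Myod1 (-0.0155 to 0.0857). The causes were not tested. Over the named genes other than Heyl, Hey1, Myf5 and Mki67, 761 of 804 recomputed values kept direction and side of the threshold. Of 240 list counts, 217 stayed within 1.5 times or were equal. Depth limits Nefh, Ina and Synm.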

Other observations

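Markers of undifferentiated myoblasts moved apart. Of 14 listed, 13 were tested, and 4 rose, 5 fell and 4 did not pass, with a median log2 fold change of 0.10. Sdc4, a heparan sulfate proteoglycan gene of muscle stem cells, fell by 1.03 ± 0.06 (edgeR adjusted p = 2.38e-08), Notch1 by 0.84 ± 0.07, Cd34 by 0.45 ± 0.06 and the cyclin gene Ccnd1 by 0.43 ± 0.06, while Id3, which encodes an inhibitor of myogenic factors, rose by 0.75 ± 0.08 (edgeR adjusted p = 4.59e-06). The other called genes of the list, chosen after their values were seen, were Heyl (1.14 ± 0.12), Hey1 (0.57 ± 0.11), Myf5 (0.51 ± 0.10) and Mki67 (-0.30 ± 0.07). The summed level of the list was 1536 to 1598 CPM in shGAA and 1874 to 1958 CPM in shScrambled.

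Fibroblast markers, which myoblasts also express in part, gave 3 rises, 3 falls and 4 without a call among 10 tested of 12, with a median of 0.23. Col1a1 fell by 1.10 ± 0.10 and Col1a2 by 0.47 ± 0.05, while Col3a1 rose by 0.31 ± 0.04. S100a4 fell by 0.36 ± 0.05, and Fn1 was at 0.06 ± 0.04 (edgeR adjusted p = 0.196), or 0.11 without TMM scaling (adjusted p = 0.0156, the lowest of its alternatives). The sum was 17507 to 17794 CPM in shGAA and 16860 to 17182 CPM in shScrambled. Most of it lay in Fn1, which averaged 10771 CPM in shGAA and 10325 CPM in shScrambled. Col3a1 averaged 3413 CPM in shGAA and 2759 CPM in shScrambled. Leukocyte and endothelial markers summed to 2.66 to 2.82 CPM in shGAA and 3.74 to 5.48 CPM in shScrambled, with 5 of 12 at 0, and 2 were tested. Cdh5 was called lower (-1.35 ± 0.46, edgeR adjusted p = 0.0280), a call lost without shGAA 1 (adjusted p = 0.116), shGAA 2 (0.0997) or shScrambled 2 (0.155) and in DESeq2 (0.0663), the highest of 12 alternatives being 0.155. Cdh5 was low, with 4, 5 and 11 counts in shGAA and 17, 24 and 8 in shScrambled. Cd68 did not pass (-0.48 ± 0.27, edgeR adjusted p = 0.181).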
